A study of Mus musculus with 20 samples.

Results

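A set of genes that mark the lining of blood vessels was followed in the thoracic aorta of mice: Pecam1, Cdh5, Kdr, Tek, Tie1, Vwf, Nos3, Eng, Emcn and Klf2. They are 10 of the 54532 genes counted, chosen by symbol as blood endothelial markers, with the flow-responsive genes Nos3 and Klf2 among them. RNA was sequenced from 20 libraries of C57BL/6J aorta in 4 groups of 5: descending aorta with BAPN, descending aorta with water, ascending aorta with BAPN, and ascending aorta with water, each given for 1 week. BAPN (β-aminopropionitrile) inhibits lysyl oxidases, and elastin and collagen are then less cross-linked. All mice were of 1 inbred strain, and no genetic change is named. The labels used here give no age or sex, do not say whether the 2 regions came from the same mice, and do not say which layers of the wall were kept, so that p-values measure the spread between these libraries.

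Endothelial cells form a single layer between blood and wall and seal it with the adhesion proteins PECAM1 and VE-cadherin (Cdh5). They read growth factors through KDR, the main VEGF receptor, and through the angiopoietin receptor TEK with its partner TIE1, and endoglin (Eng) is a co-receptor for BMP and TGF-β ligands. Blood flow induces the transcription factor KLF2, which drives the nitric oxide synthase NOS3, while von Willebrand factor (Vwf) is stored in granules and tethers platelets. Endomucin (Emcn) is a surface mucin best known from capillaries and veins. Arteries, capillaries and lymph vessels use these genes to different degrees, and a thoracic aorta holds its own lining and the small vessels of its outer coat.

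Promoters are shown for the genes that set the regions apart most (Kdr and Emcn), for 1 that did not pass the test between them (Tie1) and for the flow-responsive Klf2. Of the 10 genes, 6 matched a promoter of 300 bases (250 before to 50 after the start) in RefSeq on GRCm38.p6. In the first 3, capitals mark GGAA on either strand, the core recognised by the ETS factors of endothelium. In Klf2 they mark CTA, any 4 bases and TAG, a loosened form of the MEF2 pattern that leaves the middle bases free. MEF2 factors act in flow signalling. The windows are chr5:75978406-75978705 on the minus strand for Kdr, chr3:137340828-137341127 on the plus strand for Emcn, chr4:118489800-118490099 on the minus strand for Tie1 and chr8:72318812-72319111 on the plus strand for Klf2.
Kdr: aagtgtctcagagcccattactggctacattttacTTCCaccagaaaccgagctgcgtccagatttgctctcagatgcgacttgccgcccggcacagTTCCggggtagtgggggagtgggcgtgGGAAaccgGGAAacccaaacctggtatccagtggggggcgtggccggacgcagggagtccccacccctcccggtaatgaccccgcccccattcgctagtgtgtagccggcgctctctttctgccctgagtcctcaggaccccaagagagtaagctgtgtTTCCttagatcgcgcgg
Emcn: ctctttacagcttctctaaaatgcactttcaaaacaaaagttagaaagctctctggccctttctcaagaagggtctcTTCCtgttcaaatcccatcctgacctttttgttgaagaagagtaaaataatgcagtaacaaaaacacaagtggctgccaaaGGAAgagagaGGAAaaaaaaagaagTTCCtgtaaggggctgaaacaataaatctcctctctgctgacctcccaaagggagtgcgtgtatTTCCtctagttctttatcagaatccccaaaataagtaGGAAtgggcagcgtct
Tie1: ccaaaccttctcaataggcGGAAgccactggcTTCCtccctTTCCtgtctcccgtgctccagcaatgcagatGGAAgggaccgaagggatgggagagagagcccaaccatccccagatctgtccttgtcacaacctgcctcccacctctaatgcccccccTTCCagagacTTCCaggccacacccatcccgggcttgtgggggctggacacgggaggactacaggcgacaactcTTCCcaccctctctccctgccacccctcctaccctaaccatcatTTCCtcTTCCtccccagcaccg
Klf2: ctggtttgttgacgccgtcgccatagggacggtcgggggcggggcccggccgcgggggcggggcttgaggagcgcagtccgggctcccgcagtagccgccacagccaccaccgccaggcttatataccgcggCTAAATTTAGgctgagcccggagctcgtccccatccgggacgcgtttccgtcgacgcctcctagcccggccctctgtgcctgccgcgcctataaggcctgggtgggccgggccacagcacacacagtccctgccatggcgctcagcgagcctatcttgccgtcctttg
GGAA was found 5 times in Kdr, 6 times in Emcn, 9 times in Tie1, 4 times in Eng, 2 times in Tek and 1 time in Klf2, with matches free to overlap other motifs. Of 32851 promoters of the same length 96.0% held it, so its presence sets none of these genes apart. The loosened MEF2 pattern was found 1 time in Klf2 and in none of the other 5 windows, against 3.69% of all promoters. The KLF pattern CACCC was found 4 times in Eng, 3 times in Tie1, 1 time each in Tek, Kdr and Klf2 and not in Emcn, against 57.5% of promoters. GATAA and AACAAT, searched as GATA and SOX patterns, were each found 1 time in Emcn and 1 time in Tek, against 25.4% and 10.7% of promoters, and the longer ETS form CCGGAAG, in 8.86% of promoters, was in none of the 6. These matches were read on both strands and describe letters only.

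Libraries held 15744725 to 23292294 counts, and all 10 genes passed the filter on low counts, which kept 15543 genes. Levels are CPM, counts scaled to the same library size with factors from the trimmed mean of M values (TMM). Smooth muscle markers of the fixed list summed to between 18809 and 24927 CPM in every library, far above the sums of any other cell type list. The levels of 33 pseudogenes parted the libraries in another way. Higher levels were found in descending water 1, 2 and 5, ascending BAPN 1 to 5 and ascending water 4 and 5, which form the higher set, and the other 10 libraries form the lower set. The labels do not name what the sets are. Under BAPN the sets and the regions cannot be told apart. Each set held descending and ascending water libraries, and within-set values under water are given beside the regional results. The sets also go partly with treatment. All ascending BAPN libraries were in the higher set, and of ascending water only 4 and 5 were. All descending BAPN libraries were in the lower set, and of descending water only 3 and 4 were. Differences with BAPN are therefore partly mixed with the sets.

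Pecam1 was the most abundant of the 10 genes per kilobase of exon in every group. It lies on chromosome 11 (106654217 to 106750628, ENSMUSG00000020717, GRCm38) and reached 90.0 ± 7.12 CPM per kb in descending BAPN, 84.6 ± 5.88 in descending water, 72.7 ± 6.92 in ascending BAPN and 76.9 ± 11.1 in ascending water (SD, n = 5 each). Klf2 came next with 55.9 ± 7.24, 52.5 ± 9.33, 72.5 ± 14.6 and 73.6 ± 16.4 CPM per kb in the same groups. In ascending aorta these 2 genes differed by less than their SDs. Eng ranked 3 in all groups, between 43.6 and 59.9 CPM per kb. Kdr was the lowest everywhere, at 0.629 ± 0.249 CPM per kb in descending BAPN, 0.576 ± 0.0734 in descending water, 4.03 ± 0.496 in ascending BAPN and 4.31 ± 0.960 in ascending water. Emcn ranked 9 and Nos3 ranked 8 in all groups. Vwf ranked 4 in descending aorta, with 26.7 ± 2.72 CPM per kb under BAPN and 27.0 ± 2.62 under water, and 7 in ascending aorta, with 14.6 ± 1.96 under BAPN and 17.3 ± 3.0 under water. Tek, Cdh5 and Tie1 lay together, at 17.6 CPM per kb or above. Tek and Cdh5 differed by less than the larger of their SDs except in descending water (19.7 ± 1.27 and 18.3 ± 0.959), and Cdh5 and Tie1 except in descending BAPN (20.5 ± 1.80 and 18.1 ± 1.01). Lengths are the union of annotated exons.

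**Figure D1:**
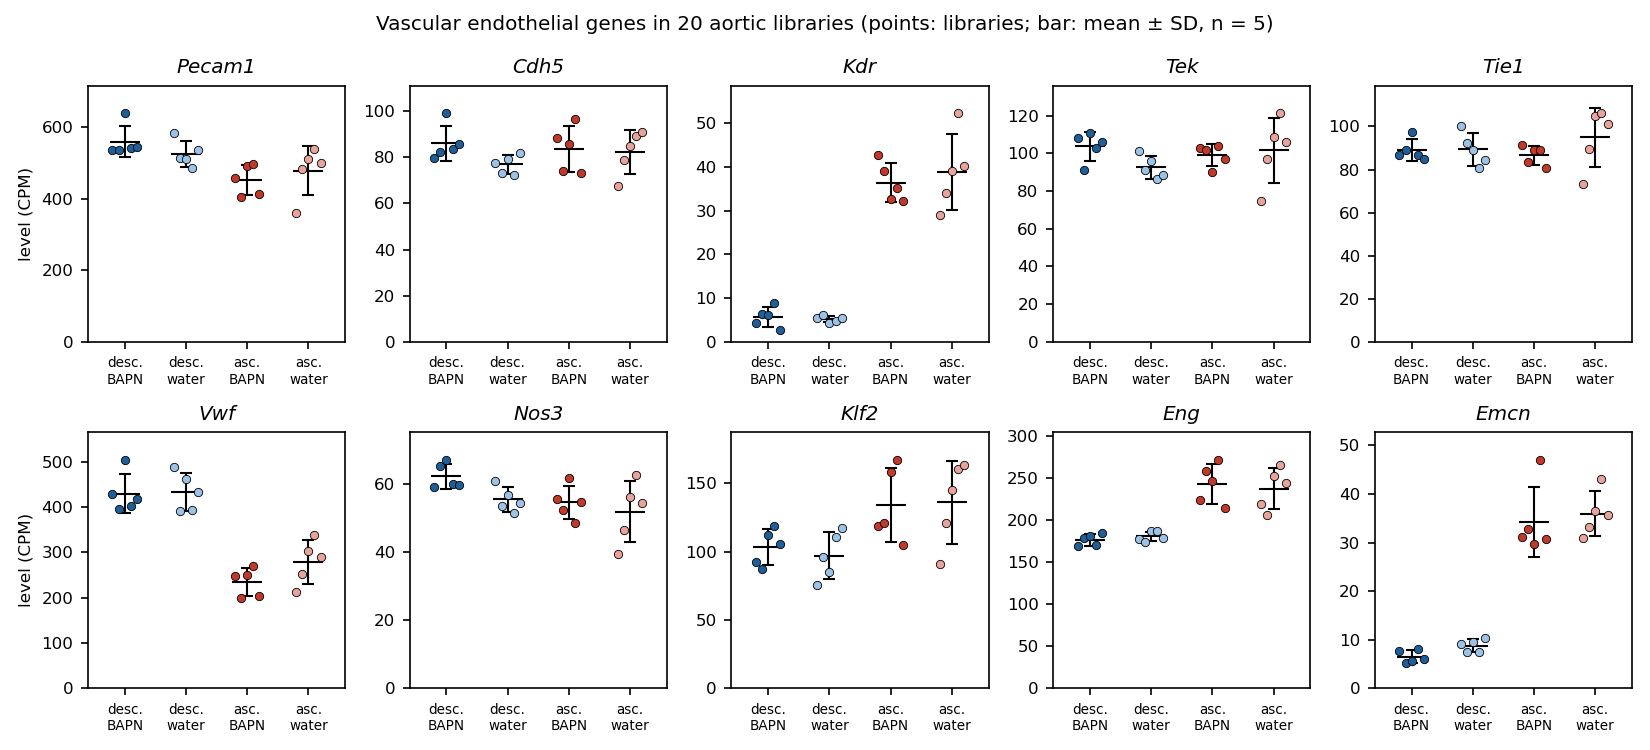
Level of each gene (CPM, y axis from 0) in every library, by group on the x axis; points are libraries and bars the mean ± SD (n = 5). Kdr and Emcn stayed at or under 10.4 CPM in the 10 descending libraries and at or above 29.0 CPM in the 10 ascending libraries, and Vwf stood at 391 CPM or more in descending and 337 CPM or less in ascending libraries.

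Between the regions, the endothelial genes parted. Kdr and Emcn fell to a small share of their ascending level in descending aorta and Eng fell modestly, whereas Vwf rose, and Cdh5, Tek and Tie1 did not pass the test. Under water 5 of the 10 genes were called (edgeR quasi-likelihood test, Benjamini-Hochberg adjusted p under 0.05), 1 higher (Vwf) and 4 lower (Kdr, Emcn, Eng, Klf2), against 27.3% of all genes tested, 12.1% higher and 15.2% lower. Under BAPN 5 were called as well, 2 higher (Vwf, Pecam1) and 3 lower (Kdr, Emcn, Eng), against 29.8% of all genes tested, 14.2% higher and 15.6% lower. The median log2 difference of the 10 genes was -0.12 under water and 0.04 under BAPN, beside 0.01 over all genes tested in each. In RNA of whole tissue, fewer cells of a type and less RNA per cell cannot be told apart.

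Kdr, the VEGF receptor that carries most of its signal in endothelium, lies on chromosome 5 (75932827 to 75978458, ENSMUSG00000062960). Under water it stood at 5.47, 6.03, 4.29, 4.83 and 5.39 CPM in the descending libraries, against 29.0, 34.1, 39.0, 52.3 and 40.2 CPM in the ascending ones. No descending library came near the lowest ascending library. The log2 difference was -2.91 (SE 0.19, adjusted p = 2.36e-12, edgeR), 7.50-fold lower in descending aorta. Under BAPN the values were 4.37, 6.37, 6.09, 8.77 and 2.81 CPM in descending libraries, against 42.8, 39.1, 32.7, 35.2 and 32.2 CPM in ascending ones. The groups again did not overlap, with a log2 difference of -2.70 (SE 0.18, adjusted p = 8.87e-12, edgeR). Under water the difference was -3.04 among the libraries of the higher pseudogene set and -2.90 among those of the lower set.

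Emcn lies on chromosome 3 (137341067 to 137432185, ENSMUSG00000054690) and followed Kdr. Descending water libraries held 9.15, 7.38, 9.56, 7.45 and 10.4 CPM, against 30.9, 33.2, 36.5, 43.1 and 35.8 CPM in ascending water libraries. Descending BAPN libraries held 7.62, 5.24, 5.62, 8.08 and 6.13 CPM, against 31.2, 32.8, 29.6, 47.0 and 30.7 CPM in ascending BAPN libraries. In neither treatment did the regions overlap. The log2 differences were -2.03 under water (SE 0.13, adjusted p = 3.79e-12, edgeR) and -2.39 under BAPN (SE 0.14, adjusted p = 3.49e-13, edgeR), which is 4.08-fold and 5.24-fold lower in descending aorta. Within the sets the difference under water was -2.13 (higher set) and -1.98 (lower set).

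Vwf moved the other way. It lies on chromosome 6 (125546774 to 125686679, ENSMUSG00000001930), and descending water libraries held 488, 391, 461, 394 and 433 CPM, against 212, 252, 302, 337 and 289 CPM in ascending water libraries. Descending BAPN libraries held 428, 394, 504, 402 and 418 CPM, against 249, 199, 251, 270 and 203 CPM in ascending BAPN libraries. Every descending library was above every ascending one. The log2 differences were 0.64 under water (SE 0.10, adjusted p = 1.61e-05, edgeR) and 0.87 under BAPN (SE 0.10, adjusted p = 1.57e-07, edgeR). Within the sets the difference under water was 0.48 (higher set) and 0.74 (lower set).

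Eng lies on chromosome 2 (32646595 to 32682669, ENSMUSG00000026814). It held 178, 174, 186, 186 and 179 CPM in descending water libraries, against 218, 206, 252, 265 and 244 CPM in ascending water libraries. Under BAPN it held 169, 179, 181, 170 and 185 CPM in descending libraries, against 224, 258, 246, 271 and 214 CPM in ascending ones. The descending values lay within a narrow band below all ascending ones. The log2 differences were -0.39 under water (SE 0.06, adjusted p = 1.97e-05, edgeR) and -0.46 under BAPN (SE 0.06, adjusted p = 2.28e-06, edgeR). Within the sets the difference under water was -0.53 (higher set) and -0.27 (lower set). Exons of Eng overlap those of Fpgs, and the library kit named in the labels does not mark strand, so reads in the shared bases are uncertain.

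Klf2, on chromosome 8 (72319033 to 72321656, ENSMUSG00000055148), held 75.8, 95.7, 85.2, 111 and 117 CPM in descending water libraries, against 90.9, 121, 145, 160 and 163 CPM in ascending water libraries. These groups overlapped, and the log2 difference of -0.49 was called (SE 0.14, adjusted p = 0.0113, edgeR). It was -0.75 within the higher pseudogene set and -0.28 within the lower set, where the call was lost (adjusted p = 0.321, edgeR). Under BAPN Klf2 averaged 103 ± 13.4 CPM in descending and 134 ± 27.0 CPM in ascending aorta (SD, n = 5 each), with a log2 difference of -0.37 just outside the threshold (SE 0.14, adjusted p = 0.0511, edgeR). With the pseudogene set as a term this difference was -0.16 (adjusted p = 0.671, edgeR). That term rests on the water libraries alone and does not part set from region under BAPN. The difference was called in 5 settings that keep all libraries and in the fit on the compared groups alone. Some fits with a library left out also called it.

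Pecam1 stood at 537, 538, 639, 542 and 546 CPM in descending BAPN libraries, against 457, 404, 491, 498 and 414 CPM in ascending BAPN libraries, with no overlap. Its log2 difference was 0.31 (SE 0.08, adjusted p = 0.00479, edgeR) and 0.47 with the pseudogene set as a term. The second value rests on a set effect taken from the water libraries alone, since set and region coincide under BAPN. Under water Pecam1 averaged 527 ± 36.6 CPM in descending and 479 ± 68.8 CPM in ascending aorta (SD, n = 5 each), a log2 difference of 0.14 that was not called (SE 0.08, adjusted p = 0.234, edgeR). Within the sets the difference under water was 0.07 (higher set) and 0.14 (lower set).

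The other 4 genes were not called between the regions. Cdh5 (chromosome 8, 104101625 to 104144511, ENSMUSG00000031871) averaged 86.0 ± 7.56 CPM in descending BAPN, 76.9 ± 4.03 in descending water, 83.6 ± 9.84 in ascending BAPN and 82.2 ± 9.45 in ascending water (SD, n = 5 each). Its log2 difference between regions was -0.10 under water (95% interval -0.26 to 0.07) and 0.04 under BAPN (-0.13 to 0.20). Tek (chromosome 4, 94739289 to 94874976, ENSMUSG00000006386) averaged 104 ± 7.76 CPM in descending BAPN, 92.6 ± 5.98 in descending water, 99.3 ± 5.74 in ascending BAPN and 102 ± 17.2 in ascending water. Its differences were -0.13 under water (-0.31 to 0.04) and 0.06 under BAPN (-0.11 to 0.24). Tie1 (chromosome 4, 118471191 to 118490061, ENSMUSG00000033191) averaged 89.0 ± 4.96, 89.3 ± 7.55, 86.7 ± 4.40 and 94.99 ± 13.7 CPM in descending BAPN, descending water, ascending BAPN and ascending water. Its differences were -0.09 under water (-0.25 to 0.07) and 0.04 under BAPN (-0.12 to 0.20). Over these 3 genes the intervals reached from -0.31 to 0.24. Under water Tek was called lower within the higher pseudogene set (-0.28, adjusted p = 0.0158, edgeR) and not within the lower set (-0.04). Cdh5 (-0.22 and -0.02) and Tie1 (-0.17 and -0.07) were called in neither the higher nor the lower set. Nos3 (chromosome 5, 24364810 to 24384474, ENSMUSG00000028978) averaged 62.3 ± 3.69 CPM in descending BAPN, 55.5 ± 3.64 in descending water, 54.7 ± 4.78 in ascending BAPN and 51.9 ± 8.98 in ascending water. Its differences were 0.10 under water (-0.08 to 0.28) and 0.19 under BAPN (0.01 to 0.37, adjusted p = 0.106, edgeR), and within the sets the difference under water was -0.06 (higher set) and 0.19 (lower set). Under BAPN Nos3 was called with the pseudogene set as a term (0.36, adjusted p = 0.0247, edgeR), with no filter on low counts (adjusted p = 0.0427), on the compared groups alone (adjusted p = 0.0354) and without ascending BAPN 3 (adjusted p = 0.0499). The first of these fits takes its set effect from the water libraries alone and does not part set from region under BAPN. Exons of Nos3 overlap those of Atg9b and of an antisense gene, so reads there are uncertain. Ascending water 1 was the lowest library of its group for 9 of the 10 genes. Without it, Tek (-0.23) and Tie1 (-0.17) were called lower in descending aorta under water, and Nos3 and Klf2 were called under BAPN. Ascending water 1 is in neither group of the comparison under BAPN, where the differences of Nos3 and Klf2 stayed at 0.19 and -0.37.

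**Figure D2:**
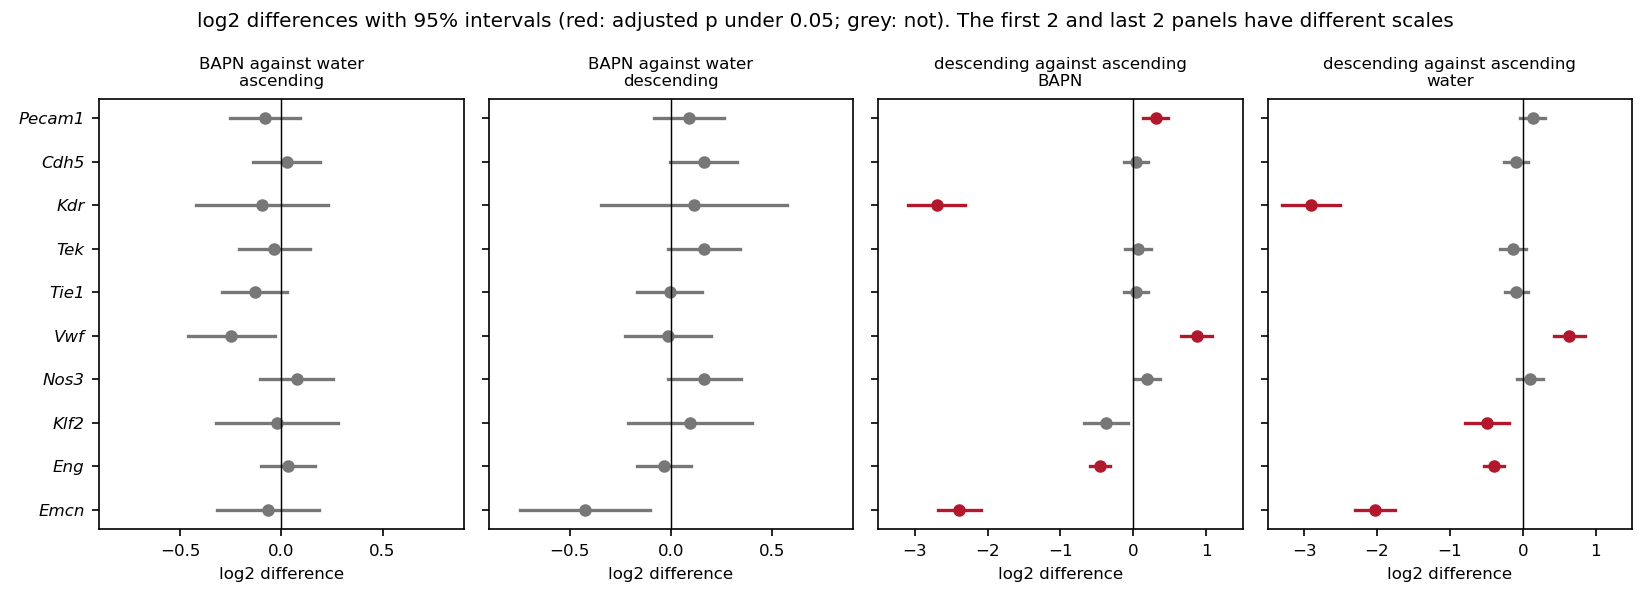
Log2 difference of each gene (x axis, point) with its 95% interval (line) in 4 comparisons; red marks an adjusted p under 0.05. No gene is red for BAPN against water, and 5 are red in each regional comparison, from -2.91 for Kdr to 0.87 for Vwf.

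Genes of the same pathways differed between the regions as well. Of 138 genes tested in the 14 lists (endothelial pathways and vessel types, and 1 list of immediate early genes), 21 were higher and 46 lower in descending aorta under water (48.6%, against 27.3% of all genes), and 31 were higher and 45 lower under BAPN (55.1%, against 29.8%). These lists were chosen with earlier results known, so the shares are a description. Among the other VEGF ligands and receptors, 1 of 9 was higher and 6 lower under water. The receptors Flt4 (-2.06, SE 0.12) and Flt1 (-1.15, SE 0.11) and the co-receptor Nrp2 (-1.48, SE 0.14) were lower, and the ligand Vegfd was higher (1.61, SE 0.07). Flt4 is also in the list of lymphatic endothelial markers given below and counts in both. Under BAPN the log2 differences were -2.40 for Flt4, -1.18 for Flt1, -1.66 for Nrp2 and 1.56 for Vegfd, and the co-receptor Nrp1 was called in neither comparison.

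In the angiopoietin pathway the ligands Angpt1 (-2.53, SE 0.19) and Angpt4 (-1.47, SE 0.15) were lower in descending aorta under water, while the TEK phosphatase Ptprb (0.29, SE 0.11) and Svep1 (0.57, SE 0.08), which binds TIE1, were higher. The ligand Angpt2 was not called, at 63.5 CPM in descending and 69.3 CPM in ascending water libraries. Of the 12 tested partners of endoglin, 1 was higher and 3 lower under water. The receptor Acvrl1 was higher (0.45, SE 0.05), opposite in sign to Eng, and Bmper, a BMP-binding protein, was lower (-1.27, SE 0.11), as was the type II receptor Bmpr2 (-0.14, SE 0.05). Gdf2, which encodes the ligand BMP9, was lower, averaging 0.03 CPM in descending and 3.99 CPM in ascending water libraries, so that its fold rests on few reads. The targets Id1, Id2 and Id3 were not called under either treatment.

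Of 11 junction and adhesion genes, 2 were higher and 7 lower in descending aorta under water. Claudin Cldn5, which seals tight junctions, was lower (-1.09, SE 0.07), as was the sialomucin Podxl (-0.75, SE 0.09), while Mcam, which smooth muscle also makes, was higher (0.49, SE 0.04), as was the junctional adhesion molecule Jam3 (0.38, SE 0.05). Of 16 genes of the shear response, 3 were higher and 3 lower under water. Thbd, the anticoagulant receptor thrombomodulin that KLF2 induces, was lower (-0.84, SE 0.05), the mechanosensitive channel Piezo1 was lower (-0.61, SE 0.09), and Edn1, the constrictor endothelin, was higher (0.79, SE 0.10). Klf4, the relative of Klf2, was lower (-0.31, SE 0.09). Of the MEF2 genes only Mef2a was called under water (0.23, SE 0.05). In the nitric oxide pathway 3 of 12 were lower and none higher under water, among them Ddah1, which degrades a NOS inhibitor (-1.13, SE 0.19), the cyclase subunit Gucy1a1 (-0.42, SE 0.05) and the phosphodiesterase Pde5a (-0.22, SE 0.05). Of 12 immediate early genes, which respond fast to stimuli and to tissue handling, 2 were lower under water (Egr2, -1.33, SE 0.22, and Egr3, -0.77, SE 0.12).

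Markers of vessel types did not move as blocks, and the counts and differences that follow are for water. Under BAPN 4 arterial genes were higher and 3 lower, 3 capillary genes higher and 3 lower, and 1 venous gene higher and 1 lower. Of the transcription factors 4 were higher and 5 lower under BAPN, and of the inflamed endothelium list 1 was higher and 3 lower. The further blood endothelial genes had 2 higher and 4 lower under BAPN, and the storage granule list 2 higher and 1 lower. Of 10 arterial genes, 3 were higher, among them the connexin Gja5 (1.18, SE 0.09) and ephrin Efnb2 (0.35, SE 0.06), and 3 lower, among them the guidance receptor Unc5b (-1.09, SE 0.07) and the Notch ligand Jag2 (-0.92, SE 0.13). Of 10 capillary genes, 3 were higher, among them Meox2 (0.65, SE 0.11), and 3 lower, among them Cd300lg (-1.23, SE 0.23), Aqp1 (-0.21, SE 0.04) and Apln (-1.19, SE 0.31). Plvap, a protein of fenestrated endothelium, stood at 62.8 CPM in descending and 68.5 CPM in ascending water libraries without a call. Of 4 venous genes 1 was lower (Ephb4, -0.22, SE 0.06). Of 14 tested endothelial transcription factors, 2 were higher, led by Sox17 (0.96, SE 0.10), and 6 lower, among them Fli1 (-0.50, SE 0.08), Mecom (-0.49, SE 0.06) and Elk3 (-0.27, SE 0.05). Of 12 further blood endothelial genes, 2 were higher and 4 lower. The receptors Adgrf5 (-1.61, SE 0.12) and Adgrl4 (-1.16, SE 0.17) and Tmem204 (-1.05, SE 0.05) were lower, Clec14a was higher (0.51, SE 0.07), and Egfl7, Ecscr, Rasip1, Ushbp1 and Arhgef15 were not called. Of 7 tested genes of the Vwf storage granule list, Rab27a was higher (0.14, SE 0.05) and Mmrn1 lower (-2.92, SE 0.17), and Cd63 was not called. Mmrn1 is also in the list of lymphatic endothelial markers. Of 7 tested genes of inflamed endothelium 1 was higher (Icam1, 0.40, SE 0.10) and 2 lower (Vcam1, -0.90, SE 0.09, and Cx3cl1, -0.88, SE 0.10).

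Of 66 tested markers of other cells, 9 were higher and 27 lower in descending aorta under water (54.5%, against 27.3% of all genes), and 6 were higher and 24 lower under BAPN (45.5%, against 29.8%). Lymphatic endothelial markers were lower in descending aorta in 5 of 6 tested under each treatment, and their sum ran from 51.6 to 66.2 CPM in descending BAPN, 50.04 to 64.8 in descending water, 144 to 165 in ascending BAPN and 117 to 156 in ascending water. Prox1, the factor that defines this cell type, averaged 0.704 CPM in descending and 14.6 CPM in ascending water libraries, and Ccl21a was at 0 in all groups. Of the cardiomyocyte markers 8 of 8 were lower, their sum running from 74.7 to 88.4 CPM in descending water and from 479 to 1129 CPM in ascending water, and from 76.2 to 87.5 CPM in descending BAPN and from 723 to 1402 CPM in ascending BAPN. The 4 mesothelial markers were all lower, with sums of 1.10 to 10.9 CPM in descending and 192 to 354 CPM in ascending water libraries, and 0.571 to 11.5 CPM in descending and 197 to 260 CPM in ascending BAPN libraries. Endocardial markers were lower in 3 of 3 under water and in 1 of 3 under BAPN, and summed to 299 ± 14.99 CPM in descending and 357 ± 32.8 CPM in ascending water libraries (SD, n = 5 each). Platelets also make Pecam1 and Vwf, which are not in the platelet list; its markers were higher in 2 of 6 tested under water (Itgb3 and Gp1ba), with Pf4 at 18.7 CPM in descending and 15.5 CPM in ascending water libraries and Gp1bb at 0. Adipocyte markers were higher in 4 of 6 under water, summing to 134 ± 47.5 CPM in descending and 56.2 ± 24.9 CPM in ascending libraries. Pericyte markers, 2 of 4 tested higher and 2 lower under water, summed to 389 to 442 CPM in descending and 244 to 274 CPM in ascending water libraries, the higher ones being Kcnj8 and Abcc9. Of 5 fibroblast markers 1 was higher and 3 were lower under each treatment. Of 7 smooth muscle and 5 erythroid markers 0 were called under either treatment, 1 of 7 macrophage markers (Cx3cr1) was lower under each, and 1 of 5 tested lymphocyte markers (Cd3g) was lower under water and 0 under BAPN. The part of these cells in the regional differences of Kdr, Emcn, Eng and Vwf was not tested.

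**Figure D3:**
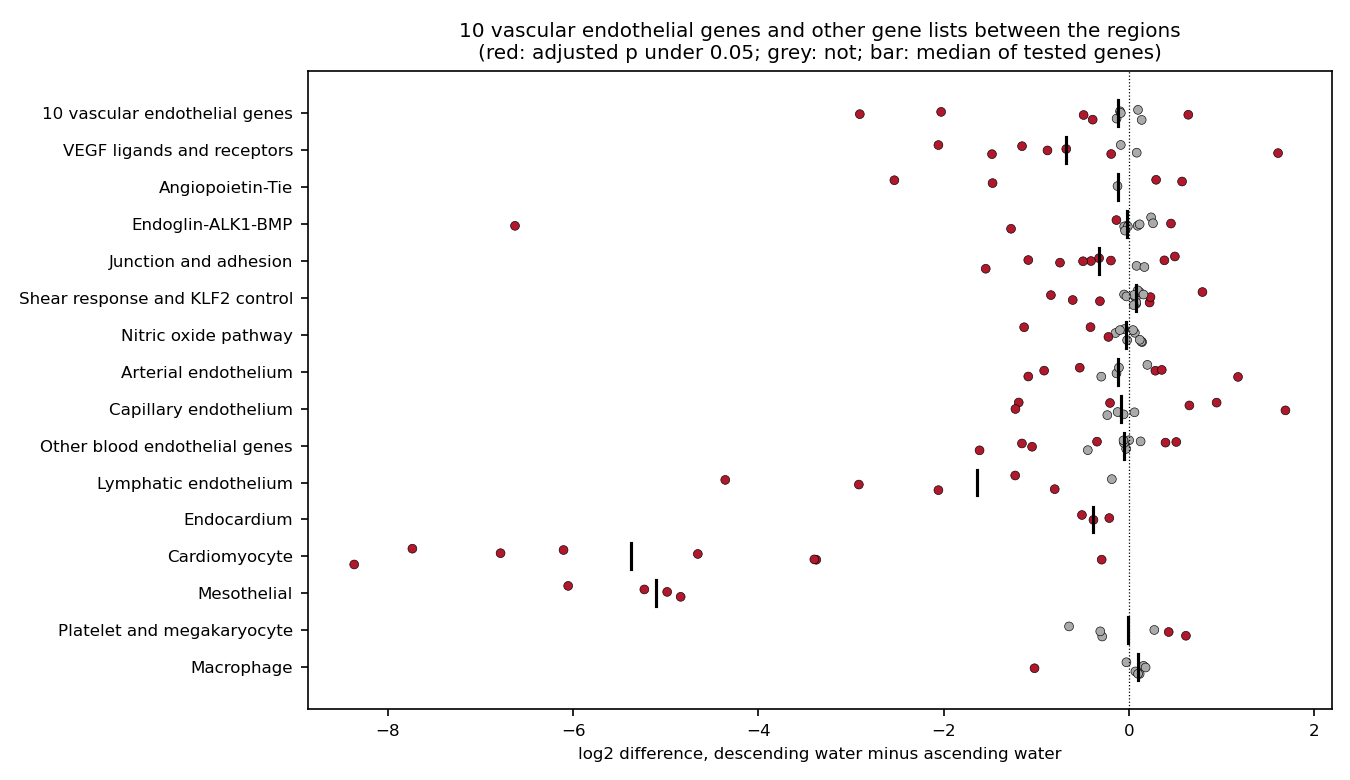
Log2 difference (x axis, descending water minus ascending water) of each tested gene, by list on the y axis; red points have an adjusted p under 0.05 and bars are list medians. The 10 vascular endothelial genes ran from -2.91 to 0.64, and cardiomyocyte, mesothelial and lymphatic medians lay at -5.38, -5.11 and -1.64. The leftmost point of the endoglin list is Gdf2, which rests on few reads.

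After 1 week of BAPN none of the 10 genes was called in either region. In ascending aorta 6.34% of all genes tested were called (3.44% higher, 2.91% lower), and 1 of the 10 had an unadjusted p under 0.05. That gene was Vwf, at 249, 199, 251, 270 and 203 CPM with BAPN, against 212, 252, 302, 337 and 289 CPM with water. The groups overlapped through the low library ascending water 1, and the log2 difference was -0.25 (SE 0.10, adjusted p = 0.158, edgeR; 0.0190 to 0.387 over the alternatives). Over the same alternatives, the fit within the higher pseudogene set included, the difference ran from -0.42 to -0.17. Without ascending water 1 both Vwf (-0.33, adjusted p = 0.0338) and Tie1 (-0.21, adjusted p = 0.0402) were called lower with BAPN in the edgeR fit. The median log2 difference of the 10 genes was -0.05, beside -0.01 over all genes, and the widest 95% interval, of Kdr, ran from -0.42 to 0.23.

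In descending aorta 10.7% of all genes tested were called under BAPN (6.18% higher, 4.54% lower), again with 0 of the 10 genes, and 2 had an unadjusted p under 0.05. Emcn held 7.62, 5.24, 5.62, 8.08 and 6.13 CPM with BAPN, against 9.15, 7.38, 9.56, 7.45 and 10.4 CPM with water. The groups overlapped, and the log2 difference was -0.43 (SE 0.15, adjusted p = 0.0740, edgeR), with a 95% interval of -0.75 to -0.11. DESeq2 called Emcn (adjusted p = 0.0249), as did edgeR with no filter on low counts (adjusted p = 0.0158), without ascending BAPN 4 and without descending BAPN 4. Ascending BAPN 4 is in neither group of this comparison, and without it the difference stayed at -0.43. Within the lower pseudogene set the difference was -0.38 (adjusted p = 0.259, edgeR), and over all alternatives the adjusted p ran from 0.0158 to 0.286. Cdh5 had a log2 difference of 0.16 (SE 0.08, adjusted p = 0.212, edgeR). The median of the 10 genes was 0.09, beside -0.00 over all genes.

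The test of the difference between the 2 BAPN effects called none of the 10 genes, and 0 had an unadjusted p under 0.05. Over all genes edgeR called 0, with 1070 at an unadjusted p under 0.05, and DESeq2 called 14. The differences ran from -0.36 for Emcn (95% interval -0.77 to 0.05) to 0.23 for Vwf (-0.07 to 0.53). The 2 responses are therefore not shown to differ. The BAPN comparisons and the regional comparisons share libraries, so their values are set side by side only.

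Around these 10 genes, genes of the same lists were called for BAPN at shares near or below those of all genes. In ascending aorta 4 of 138 tested were higher and 4 lower (5.80%, against 6.34% of all genes). The arterial factor Sox17 was lower (-0.39, SE 0.10, adjusted p = 0.0222, edgeR), as were the Notch ligand Jag1 (-0.20, SE 0.06), the venous factor Nr2f2 (-0.25, SE 0.07) and Myct1 (-0.30, SE 0.09). Mcam (0.29, SE 0.04), Thbd (0.20, SE 0.05), the arginine carrier Slc7a1 (0.31, SE 0.07) and the cGMP-dependent kinase Prkg1 (0.38, SE 0.07) were higher. In descending aorta 11 were higher and 2 lower (9.42%, against 10.7% of all genes, 6.18% higher and 4.54% lower). Gja5 (0.40, SE 0.09, adjusted p = 0.00412, edgeR) and Sox18, a factor of endothelial development (0.43, SE 0.10, adjusted p = 0.00535, edgeR), were higher, as were Cldn5 (0.27, SE 0.07), Foxc2 (0.23, SE 0.07) and Ets1 (0.22, SE 0.07). Mcam, Slc7a1, Prkg1, Pde5a, Cavin1 and Mef2d made up the other 6, and the lower 2 were Pgf, a VEGF family ligand (-0.56, SE 0.17), and the immediate early gene Egr3 (-0.44, SE 0.13). Mcam, Slc7a1 and Prkg1 were called higher in both regions. With them 2 of 7 smooth muscle markers were called higher in each region, Acta2 (0.32 in ascending, 0.34 in descending aorta) and Myocd (0.54 and 0.56). Of the 7 markers, 5 had a positive difference in ascending and 4 in descending aorta, with list medians of 0.04 and 0.10. The part of smooth muscle in these changes was not tested.

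Set against Cdh5 within each library, which takes out the scaling between libraries, 3 ratios differed with BAPN. Only the 9 other genes were tested this way, so no share over all genes stands beside the counts of ratios. Ratios are counts of a gene over counts of Cdh5, tested by an exact two-sided permutation of the mean log2 ratio, with p-values adjusted over 36 tests (9 genes, 4 comparisons); the smallest p that 5 against 5 libraries can give is 0.00794. In descending aorta the ratio of Emcn was 0.0772 ± 0.0184 with BAPN (0.0570 to 0.0972 over the libraries) and 0.114 ± 0.0115 with water (0.101 to 0.128; SD, n = 5 each). The groups did not overlap, the log2 difference was -0.59 and the exact p was 0.00794 (adjusted p = 0.0220). The ratio of Eng was 2.06 with BAPN (1.83 to 2.17) and 2.35 with water (2.19 to 2.58), a log2 difference of -0.19 (exact permutation p = 0.00794, adjusted p = 0.0220). In the edgeR fit of this comparison Eng itself differed by -0.03 (adjusted p = 0.825) and the denominator Cdh5 by 0.16 (adjusted p = 0.212). Over Tie1 the ratio of Eng differed by -0.03. In ascending aorta the ratio of Vwf was 2.80 ± 0.0877 with BAPN (2.69 to 2.93) and 3.37 ± 0.285 with water (3.13 to 3.78), a log2 difference of -0.26 (exact permutation p = 0.00794, adjusted p = 0.0220), and ascending water 1 no longer lay among the BAPN libraries. In descending aorta the count of ratios passing was 1 without descending water 1, 2, 3 or 4. The calls also depend on the gene in the denominator. Over Pecam1 only that of Emcn passed (log2 difference -0.52, exact permutation, adjusted p = 0.0357), and over Tie1 none of the 3 did, whereas Nos3 passed in ascending (0.21) and descending aorta (0.17).

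Between the regions 6 of 9 ratios to Cdh5 passed under each treatment. This count, too, has no share over all genes beside it. Under water Pecam1 (0.24), Vwf (0.74) and Nos3 (0.20) were higher and Kdr (-2.79), Emcn (-1.94) and Eng (-0.30) lower in descending aorta on the log2 scale. Under BAPN Pecam1 (0.26) and Vwf (0.83) were higher and Kdr (-2.81), Emcn (-2.43), Eng (-0.50) and Klf2 (-0.40) lower. Kdr, Emcn, Eng and Vwf also passed over Pecam1 and over Tie1 under both treatments. Over Pecam1 the ratio of Nos3 under water did not pass (-0.03, exact permutation, adjusted p = 0.607). Over Tie1 that of Klf2 under BAPN did not (-0.40, exact permutation, adjusted p = 0.0714). Tek and Tie1 kept nearly the same ratio to Cdh5, with differences of -0.03 and 0.01 under water and 0.02 and -0.01 under BAPN. This depends on the denominator. Over Pecam1 both were lower in descending aorta under water (Tek -0.27, Tie1 -0.23, exact permutation, adjusted p = 0.0190 each). Under BAPN Tie1 passed over Pecam1 (-0.27) and Tek did not (-0.25, exact permutation, adjusted p = 0.0794).

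**Figure D4:**
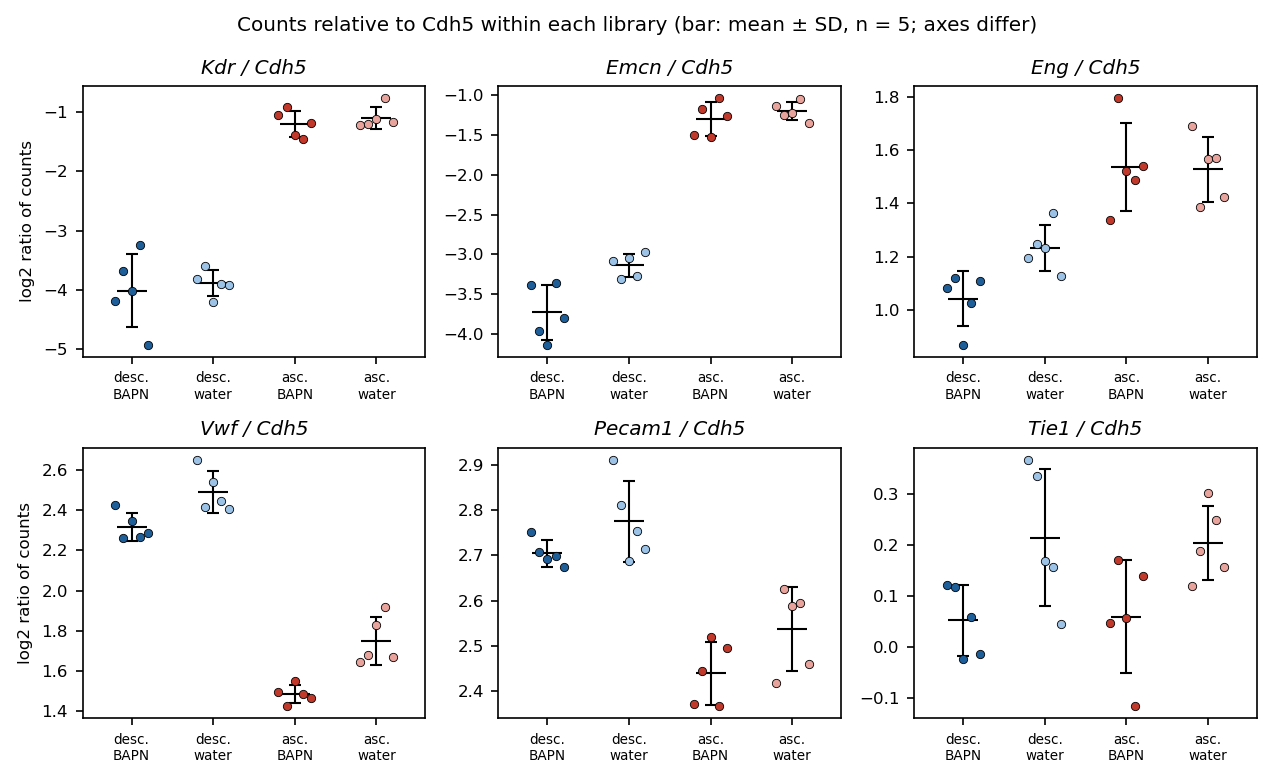
Log2 ratio of counts to Cdh5 within each library (y axis; scales differ between panels), by group; points are libraries and bars the mean ± SD (n = 5). In descending aorta the BAPN points of Emcn all lie below the water points, and in ascending aorta those of Vwf do.

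Within groups the 10 genes varied together. With group means taken out, 45 of 45 pairs had a positive Pearson correlation of log2 CPM over the 20 libraries, from 0.06 (Nos3 and Emcn) to 0.91 (Pecam1 and Vwf), with a median of 0.46. Pecam1, Vwf, Tie1 and Cdh5 correlated best with the others, at means of 0.62 to 0.66, and Kdr (0.29) and Emcn (0.33) least. The mean of the 10 standardised levels, with group means taken out, ran from -2.09 (ascending water 1) to 1.46 (ascending water 4). In the other groups it stayed between -0.86 and 0.87, so ascending water weighs most in these correlations. No share of positive pairs over all genes was taken. The libraries share their depth and scaling, and the values are a description. Ascending water 1 was lowest of its group in 9 genes, and ascending water 4 highest in 8, ascending BAPN 4 in 7 and descending BAPN 3 in 6. Of 11025 genes averaging 5 CPM or more, those that followed the mean of the 10 genes most closely within groups were the endothelial phosphatase Ptprb (r = 0.94), the prostaglandin carrier Slco2a1 (0.92), the hypoxia factor Epas1 (0.90), Heg1 (0.89) and Palmd (0.88). With group means left in, they were Cgnl1 (0.85), Stab1 (0.85), She (0.85), Cmip (0.83) and Cd93 (0.79) over 20 libraries.

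**Figure D5:**
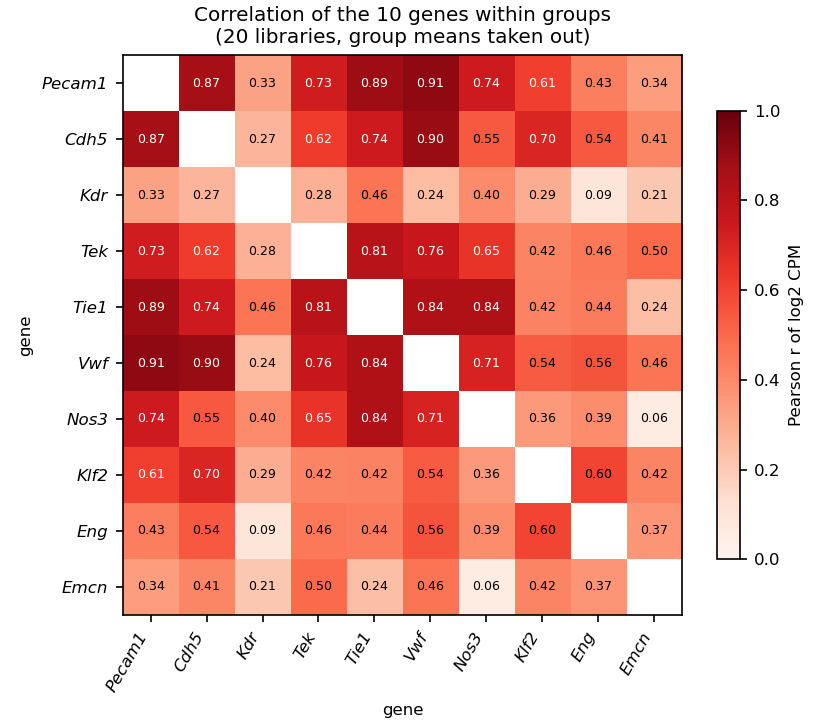
Pearson correlation of log2 CPM between each pair of genes on both axes, over 20 libraries with group means taken out (colour and printed value). Pecam1, Cdh5, Tie1, Vwf and Tek form a block at 0.62 to 0.91, and the rows of Kdr and Emcn hold values of at most 0.50.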

How the data were processed

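The authors deposited a table of whole-number read counts per gene for 20 libraries; per the submitters' processing notes the tools were fastp, STAR 2.5 and HTSeq 0.6.1 with mm10, and per the labels' protocols the kit was one that does not mark strand. Of 54532 gene IDs, 54409 matched a symbol in GENCODE vM21. Total counts per library, 15744725 to 23292294, set the precision, and errors cover the spread between libraries.

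From these counts edgeR 4.0.16 (R 4.3.3, limma 3.58.1) was run with TMM scaling and filterByExpr (minimum count 10, minimum total 15) on all 20 libraries and 4 groups (16 residual degrees of freedom). The quasi-likelihood test gave 5 contrasts, with Benjamini-Hochberg adjustment over 15543 genes. Standard errors and 95% intervals were taken from its F statistic. Ratios used a pseudocount of 0.5 and an exact permutation test. The fit was tested on simulated data. Alternatives were other scalings, filters and tools (limma-voom, DESeq2 1.42.0), other denominators, the groups compared alone, the pseudogene sets, the replicate number as a block, and each library left out. Figures were drawn with matplotlib 3.10.9.

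The 10 genes and all lists were chosen with earlier results of these data known. By rule, the text names from each list the called genes, at most the 4 with the smallest p, and the 5 genes most like the 10. Klf4 and the list genes named as not called were named after their values were seen.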

Additional observations from a re-analysis of the deposited data

Results flagged for a closer look

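In 40 groups of 5 libraries (10 genes, 4 groups), 2 held a library set apart from the others by more than the 95% critical value of Dixon's test (0.710), which chance exceeds in about 1 of 20 groups. Emcn was highest in ascending BAPN 4 at 47.0 CPM, with the nearest library at 32.8 CPM and a gap of 0.820 of the range. Pecam1 was highest in descending BAPN 3 at 639 CPM, with the nearest library at 546 CPM and a gap of 0.909 of the range. Ascending BAPN 4 is in neither group of the BAPN comparison in descending aorta, but the 4 groups share 1 estimate of the spread. Without it the Emcn difference there stayed at -0.43, with an SE of 0.12 in place of 0.15, and was called (adjusted p = 0.0272, edgeR).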

How the results depend on the processing

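The calls of Kdr, Emcn, Eng and Vwf between regions held under every alternative that could be fitted. With no filter on low counts 1 gene was called for BAPN in ascending aorta (Vwf) and 1 in descending aorta (Emcn). DESeq2 also called 1 gene, Emcn, in descending aorta. Leaving out each library in turn gave 0 to 2 genes called for BAPN in ascending aorta, 0 to 1 in descending aorta, and 5 to 7 between regions under each treatment. Ratios passing for BAPN numbered 0 in ascending and 1 in descending aorta over Pecam1, and 1 in descending aorta over Tie1. With a library left out, 1 to 3 passed in descending aorta. In the replicate block fit 1 gene was called for BAPN in descending aorta (Emcn, adjusted p = 0.0342, edgeR). That block ties equal numbers across all 4 groups, and a block within each treatment was not fitted. Same-numbered libraries correlated at -0.04 to 0.15 over the 4 pairs of groups. Between the regions the values ran from 0.056 to 0.094 under BAPN and from -0.038 to 0.0996 under water. The bar of 0.1 in every pair was not met, and the numbers were not used as pairs. Whether they mark shared mice is not known from the labels, and in 1 of 4 pairs of groups (descending BAPN and ascending BAPN) all 5 matched best with their own number.

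Differences that changed sign were all uncalled. With the pseudogene set as a term they were Cdh5 (-0.049) and Nos3 (-0.027) for BAPN in ascending aorta and Tie1 (0.096) and Vwf (0.082) in descending aorta. Within the higher set they were Cdh5 (-0.11), Nos3 (-0.10) and Eng (-0.073) for BAPN in ascending aorta and Nos3 (-0.057) between regions under water. Within the lower set they were Tie1 (0.065) and Vwf (0.0025) for BAPN in descending aorta. With a library left out the log2 difference for BAPN in ascending aorta ran from -0.038 to 0.068 for Cdh5, -0.19 to 0.030 for Kdr, -0.13 to 0.036 for Tek, -0.0090 to 0.15 for Nos3, -0.018 to 0.076 for Eng, -0.21 to 0.0073 for Emcn and -0.14 to 0.053 for Klf2. In descending aorta it ran from -0.10 to 0.30 for Kdr, -0.041 to 0.039 for Tie1 and -0.078 to 0.032 for Vwf. Between regions under BAPN that of Cdh5 ran from -0.015 to 0.096, and the difference of BAPN effects for Kdr from -0.0044 to 0.40. The cause was not tested.

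Genes called over the whole table ran from 344 to 1270 (986 in the model as reported) for BAPN in ascending aorta, 501 to 1853 (1667) in descending aorta, 2755 to 4733 (4626) between regions under BAPN, 2399 to 4448 (4243) under water and 0 to 41 (0) for the difference of effects. The lowest of the first 4 came within 1 pseudogene set or with the set as a term. These fits have fewer libraries or degrees of freedom, and the sets also go partly with region and treatment. The cause of the lower counts was not tested. Within-set values between regions under BAPN and for the difference of effects could not be fitted, nor could the difference of effects on the compared groups alone. At a median SE of 0.0871 to 0.124, small differences are beyond these libraries.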
